A study of Mus musculus with 15 samples.

Results

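The genes described here are Pttg1, Zfp296, Eps8l1 and Krt12, taken by their name on the array, and Gbp2b and Fam227b, taken by 1 probe each. They were chosen by their knockout differences: the olfactory bulbs of CRHR1 knockout mice differed by a large amount from those of the other mice in these genes, the first 4 being lower and the last 2 higher in the knockout. Together they are 6 of 34961 gene or transcript names and 8 of 55681 probes on the array, and 7 of the 8 probes were among the 33968 kept after dim probes were removed. These differences are therefore given as a description and support nothing. Ranks by the size of knockout minus Cre GFP were taken among the probes with a limma adjusted p under 0.05. Krt12 ranked 1, Eps8l1 6, Pttg1 7 and Zfp296 17 among the 492 such probes that were lower. Gbp2b ranked 1 and Fam227b 12 among the 641 that were higher.

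The series measured RNA of whole olfactory bulbs of 15 male mice aged 6 to 8 weeks, 1 array per mouse, 2 weeks after 500 nL of an adeno-associated virus was injected. The 5 knockout mice (CRHR1-/-, strain 129S4/SvJae) lacked CRHR1, the receptor for the stress peptide corticotropin-releasing hormone, and received AAV-flex-EGFP, whose cargo is made only in cells with Cre recombinase. The 5 active CRHR1 mice (CRHR1-Cre, strain C57Bl/6) received AAV-flex-(CA)CRHR1, a constitutively active receptor, and the 5 Cre GFP mice (CRHR1-Cre, C57Bl/6) received AAV-flex-GFP, so that in both groups the cargo is limited to CRHR1-positive cells, described in the labels as granule cells. The labels name Cre for these 2 groups only, so that loss of the receptor, strain and lack of Cre cannot be told apart in the knockout. All 5 knockout arrays and Cre GFP arrays 1 to 3 were on slide 1, and Cre GFP arrays 4 and 5 and all 5 active CRHR1 arrays on slide 2.

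Inbred mouse strains carry different alleles at many genes, and a difference between strains can appear as a gene that is on in the tissue of one strain and off in that of another. A knockout made in stem cells of one strain also keeps that strain's alleles around the targeted gene. A microarray reads a gene through short probes, so a change in the sequence under a probe and a change in the amount of RNA can give the same reading. The sequences of the 129S4/SvJae mice under these probes were not analysed here.

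A level is the log2 signal of a probe relative to the 75th percentile of its array, which is set to 0, and levels compare arrays for the same probe, not probes with each other. The 75th percentile lay between 663 and 1172 intensity units, and 58.7% to 66.9% of probes were well above background per array. All 20 olfactory bulb neuron markers tested were well above background on all 15 arrays. Crhr1 itself averaged 3.16 ± 0.12 in the knockout, 3.73 ± 0.12 in active CRHR1 and 3.63 ± 0.18 in Cre GFP (SD, n = 5 each). Its difference was -0.47 ± 0.09 (SE) for knockout minus Cre GFP (limma adjusted p = 0.0138), and a second Crhr1 probe gave -0.46. Whether these probes lie in the deleted part of the gene was not tested, so they do not check the labels. In whole bulb RNA, fewer cells of a type and less RNA per cell cannot be told apart.

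The first 30 of the 60 bases of each of the 8 probes are shown because the results rest on what these probes bind; they are 5′ to 3′, as in the array's design, with no base in capitals, and positions below are those of mm9.
Pttg1 A_55_P1987499: ccgcctgtttgttacgatgcagatatttaa
Pttg1 A_55_P2110738: tcatgggaatctggtaagggagtccgttca
Zfp296 A_55_P2011026: gaaatgggcaggcactttagtcttttctct
Eps8l1 A_52_P37757: aacagaagtcatttgatcccggctcgatca
Krt12 A_55_P2006300: gacggaaccgtatgggtttaacaacactaa
Krt12 A_55_P2082684: cgctgggtctcagagtgattacagtaaata
Gbp2b A_55_P2097219: gttgggatttgtttttacaacacagtgata
Fam227b A_55_P2034645: caatcatcatcgtcatttcctactatatca

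Pttg1 encodes securin, which holds back the protease separase until chromosomes are ready to separate in mitosis. Its brighter probe (chr11:43233801-43233860, minus strand) read -1.11, -1.23, -0.83, -0.68 and -0.75 on knockout arrays 1 to 5. It read 3.64, 2.42, 2.59, 2.68 and 3.43 on active CRHR1 arrays 1 to 5, and 2.52, 2.72, 2.49, 2.18 and 2.60 on Cre GFP arrays 1 to 5. All 5 knockout arrays lay at least 2.87 below the lowest of the other 10, and the probe was well above background on all 15 arrays. The mean difference was -3.42 ± 0.22 (SE) for knockout minus Cre GFP and -3.87 ± 0.22 for knockout minus active CRHR1. The second probe (chr11:43234562-43234621) was well above background on 0 knockout arrays and on all 10 others. With the scanner's background subtraction, it was at least 2.86-fold below Cre GFP and at least 5.41-fold below active CRHR1 in the knockout. Each bound was set by the lowest signal well above background on the knockout arrays. Over the processing alternatives, the differences of this probe were as small as -0.78 and -1.22 (log2), smaller than these bounds.

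Zfp296, a zinc finger protein of pluripotent cells and germ cells, was read by 1 probe (chr7:20165945-20166004, plus strand). Its levels were -6.20, -5.41, -6.17, -6.03 and -6.28 in the knockout. They were -2.89, -3.00, -3.63, -2.67 and -3.53 in active CRHR1 and -3.90, -3.32, -3.33, -3.62 and -3.05 in Cre GFP. The knockout arrays did not overlap the C57Bl/6 arrays, and knockout array 2 was the only knockout array on which the probe was well above background. Knockout minus Cre GFP was -2.57 ± 0.22 and knockout minus active CRHR1 -2.87 ± 0.22. Both rest partly on knockout signals below background, and with normexp background correction Zfp296 differed by -1.06 and -1.18. That correction also moved Krt12 to -3.24 and -3.83, Eps8l1 to -2.21 and -2.42 and Gbp2b to 2.04 and 1.55 in the same 2 comparisons. Pttg1 (-3.25 and -3.76, brighter probe) and Fam227b (2.13 in knockout minus Cre GFP) moved less. The second Pttg1 probe, below background on the knockout arrays, had differences as small as -0.78 and -1.22 over the processing alternatives.

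Eps8l1 belongs to the EPS8 family of adaptors that link growth factor receptors to actin. Its probe (chr7:4430514-4430573, plus strand) read -4.93, -4.60, -5.13, -4.88 and -5.40 in the knockout, -1.58, -0.28, -0.34, -1.57 and -1.80 in active CRHR1, and -1.27, -0.87, -0.81, -4.57 and -0.22 in Cre GFP. Cre GFP array 4 therefore lay 0.03 above the highest knockout array and far below the other 9 C57Bl/6 arrays. The Cre GFP mean was -1.55 ± 1.73 (SD, n = 5) with this array and -0.79 ± 0.44 (n = 4) without it. Knockout minus Cre GFP was -3.44 ± 0.64 with the array and -4.19 without it, and knockout minus active CRHR1 was -3.87 ± 0.64. Another probe, TC1597181, which the array design describes as similar to part of Eps8l1, was well above background on 1 knockout array and 0 Cre GFP arrays, so no difference is given.

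Krt12 encodes a type I keratin known from the corneal epithelium. Its probe A_55_P2006300 (chr11:99276980-99277039, minus strand) read -8.09, -7.92, -8.16, -8.04 and -8.01 in the knockout, where it was well above background on 0 arrays. It read -0.19, 0.07, -1.13, -0.00 and -0.20 in active CRHR1, and 0.28, 0.39, -0.07, -0.98 and -8.21 in Cre GFP. Cre GFP array 5 thus read like the knockout arrays, and the knockout overlapped the C57Bl/6 arrays through this array alone. With the scanner's background subtraction, Krt12 in the knockout was at least 16.6-fold below Cre GFP and at least 44.8-fold below active CRHR1. The fitted difference, which rests on signals below background, was -6.33 ± 1.25 for knockout minus Cre GFP and -7.95 without Cre GFP array 5. The bounds hold for that subtraction only, as normexp correction gave differences smaller than both, -3.24 and -3.83 (log2). The second Krt12 probe (chr11:99282986-99283045) was well above background on 0 of 15 arrays and was not kept, so the pattern rests on 1 probe.

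Gbp2b, named Gbp1 on the array, encodes a guanylate-binding protein, an interferon-induced GTPase of defence inside cells. Its probe (chr3:142281466-142281525, plus strand) read -2.97, -3.38, -1.74, -1.90 and -1.32 in the knockout and -4.94, -7.93, -4.30, -4.16 and -5.99 in active CRHR1. It read -7.33, -7.91, -8.14, -8.09 and -8.07 in Cre GFP, where it was well above background on 0 arrays, against 5 in the knockout and 3 in active CRHR1. The 3 groups were thus ordered knockout, active CRHR1, Cre GFP, and active CRHR1 array 2 lay among the Cre GFP arrays. With the scanner's background subtraction, Gbp2b was at least 13.6-fold higher in the knockout than in Cre GFP, and knockout minus active CRHR1 was 3.20 ± 0.61. A second probe, A_51_P398766, was at least 9.24-fold higher in the knockout than in Cre GFP with that subtraction. With normexp correction, knockout minus Cre GFP was 2.04 (log2) for the first probe, smaller than its bound. Guanylate-binding proteins are close relatives in sequence, and how far the probes bind relatives was not tested.

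Fam227b (chr2:125809364-125809423, minus strand) read -0.84, -0.07, -0.72, -0.23 and -0.85 in the knockout. It read -3.88, -4.17, -3.56, -3.60 and -3.96 in active CRHR1, and -1.56, -3.91, -3.89, -3.84 and -3.82 in Cre GFP. Cre GFP array 1 lay between the knockout arrays and the other 9, nearer to the knockout, and the other 4 Cre GFP arrays agreed to within an SD of 0.04. Knockout minus Cre GFP was 2.86 ± 0.38 with this array and 3.32 without it, and knockout minus active CRHR1 was 3.29 ± 0.38. The second probe, A_55_P1974427, gave 2.97 ± 0.42 for knockout minus Cre GFP, and Cre GFP array 1 read -2.05 on it, against -4.91 to -4.38 on the other 4 Cre GFP arrays.

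**Figure D1:**
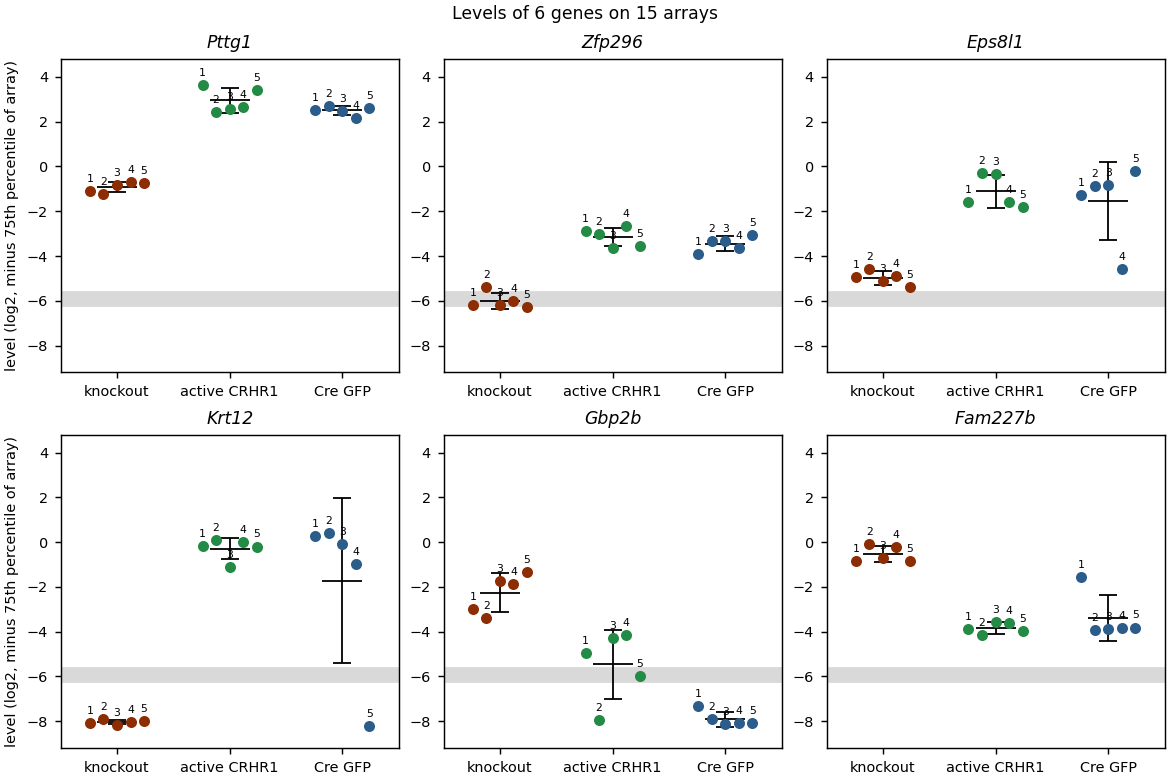
Level (log2 minus the array's 75th percentile) of the brightest probe of each of the 6 genes on the 15 arrays, with array numbers, group mean and SD (n = 5); the grey band spans the lowest signal well above background over the arrays. Cre GFP array 4 in Eps8l1, array 5 in Krt12 and array 1 in Fam227b lie on or near the knockout side, and each of these arrays is with its own group in the other 2 genes.

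**Figure D2:**
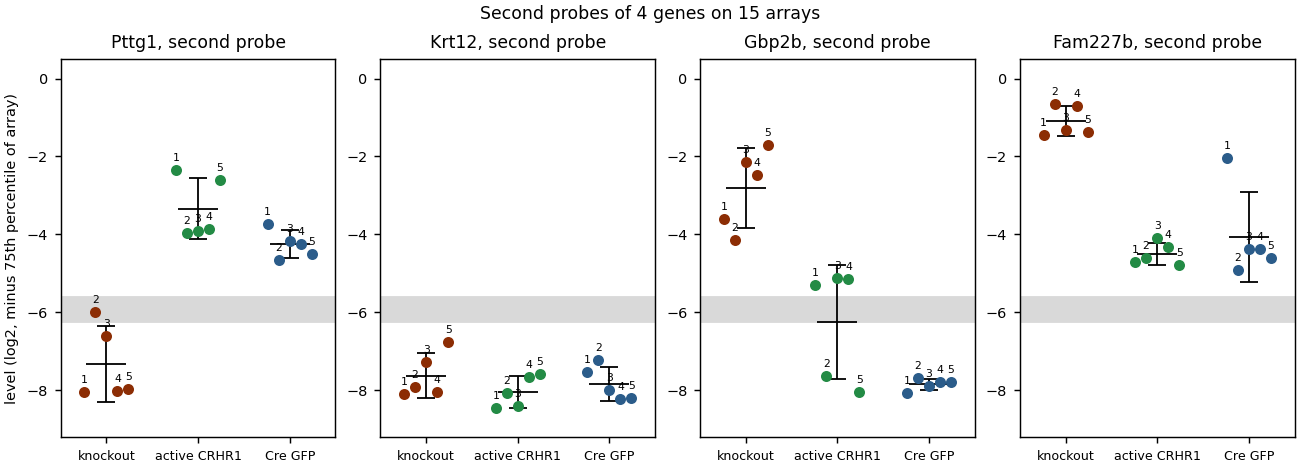
Level (log2 minus the array's 75th percentile) of the second probe of Pttg1, Krt12, Gbp2b and Fam227b on the 15 arrays, drawn as in the plot of the brightest probes. The probes of Pttg1, Gbp2b and Fam227b keep the group order of the brightest ones, and the Krt12 probe stays under the grey band on all 15 arrays.

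In knockout minus Cre GFP, all 6 genes passed an adjusted p under 0.05, 4 lower and 2 higher. Of the 33968 probes 3.34% did, 1.45% lower and 1.89% higher. In knockout minus active CRHR1 all 6 again passed, 4 lower and 2 higher, where 25.6% of probes did, 9.5% lower and 16.1% higher. Of all called probes 56.6% were higher in knockout minus Cre GFP and 62.8% in knockout minus active CRHR1, and 30.3% and 51.4% with arrays centred on their median. Both comparisons use the knockout arrays that chose the genes, so nothing is read from these counts. On 5 of the 6 genes the knockout arrays did not overlap the other 10, Krt12 being the exception, and 2.74% of all probes showed no overlap.

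The comparison of the 2 C57Bl/6 groups, active CRHR1 minus Cre GFP, did not enter the choice of the genes, although it shares the Cre GFP arrays with the comparison that did. Of the 6 genes 1 passed, Gbp2b, which was higher, where 8.36% of all probes passed, 3.75% higher and 4.6% lower. It rose by 2.44 ± 0.61 (SE; limma adjusted p = 0.0262; 95% interval 1.13 to 3.76; 4 of 5 active CRHR1 arrays above all 5 Cre GFP arrays), and at least 1.47-fold as a bound. Its second probe gave 1.60 ± 0.61 and did not pass (adjusted p = 0.114). With slide as a fixed block, which compares only arrays of slide 2, the difference was 2.62 and no longer passed (limma adjusted p = 0.104). With normexp background correction it was 0.49 (limma adjusted p = 0.231), smaller than the 1.47-fold bound. It also failed when any of Cre GFP arrays 2 to 5 or active CRHR1 arrays 1, 3 or 4 was left out, with adjusted p up to 0.0719.

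The other 5 genes did not pass in active CRHR1 minus Cre GFP. Pttg1 differed by 0.45 ± 0.22 (95% interval -0.02 to 0.91; limma adjusted p = 0.202), and its second probe by 0.92 ± 0.44. Zfp296 differed by 0.30 ± 0.22 (interval -0.17 to 0.77; adjusted p = 0.391). The intervals of both exclude a change as large as that of the knockout. Eps8l1 differed by 0.43 ± 0.64 (interval -0.95 to 1.81; adjusted p = 0.697), and by -0.32 without Cre GFP array 4. Krt12 differed by 1.43 ± 1.25 (interval -1.25 to 4.10; adjusted p = 0.480), by -0.19 without Cre GFP array 5 and by 4.30 within slide 2. Fam227b differed by -0.43 ± 0.38 (interval -1.25 to 0.39; adjusted p = 0.487), and by 0.03 without Cre GFP array 1. The direction in these 3 genes therefore turned with a single Cre GFP array.

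**Figure D3:**
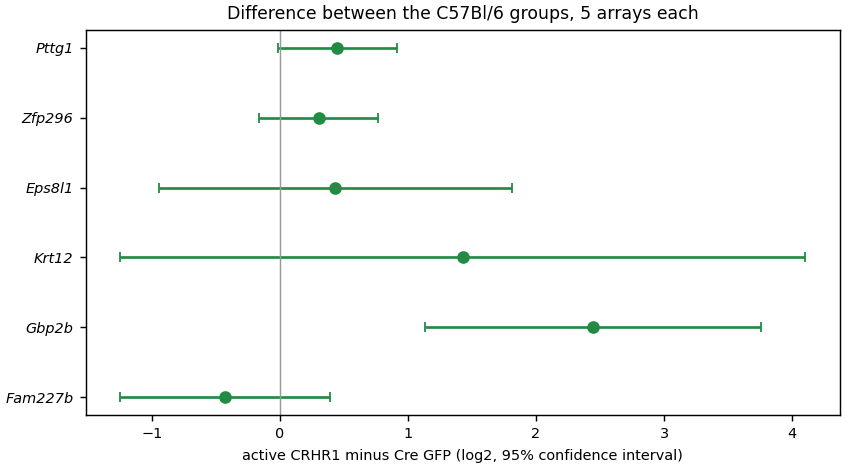
Difference of active CRHR1 minus Cre GFP (log2) for the brightest probe of each of the 6 genes, points with 95% confidence intervals from limma, 5 arrays per group. The interval of Gbp2b, 1.13 to 3.76, lies above 0 and the other 5 include 0.

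The Cre GFP arrays that stood apart were set beside other probes on the same chromosome, a description chosen after the values were seen. Probes within 10 Mb were used whose knockout arrays did not overlap the other 9 C57Bl/6 arrays and whose means differed by at least 0.5. An array's position on such a probe is 0 at the mean of the other 9 C57Bl/6 arrays and 1 at the knockout mean, and the array itself had no say in which probes were used. Around Krt12, Cre GFP array 5 had a median position of 0.64 over 30 other probes, of which 18 were at 0.5 or more. The other 9 C57Bl/6 arrays had medians between -0.33 and 0.32 over 17 to 21 probes each, with 0 to 5 at 0.5 or more. The probe sets differed between arrays, as each array was left out of its own choice. Stac2 and Fzd2, for example, entered only for Cre GFP array 5. Some genes, such as Rnd2 and Rgs9, entered through several probes. Krt12 itself and Fzd2, a Wnt receptor gene, had positions of 1.02 and 1.31, but neither was well above background on this array or on any knockout array, so these values have no order against the knockout. The position was 0.42 and 0.44 for the probes of Crhr1, which lies 4.76 Mb from Krt12 on chromosome 11.

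Around Fam227b, Cre GFP array 1 had a median position of 0.70 over 15 other probes, with 11 at 0.5 or more, and the position of Fam227b was 0.69. The next highest median there was that of Cre GFP array 5, 0.52 over 10 probes. Galk2, a galactokinase gene whose probe lies next to that of Fam227b, had a position of 0.64 on Cre GFP array 1. Around Eps8l1, Cre GFP array 4 had a median of 0.23 over 15 other probes with 1 at 0.5 or more, while Eps8l1 was at 0.90. Array 4 thus stood with the knockout at Eps8l1 and at 1 other of the nearby probes, that of Oscar, at 0.72. Why these arrays read so was not tested.

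**Figure D4:**
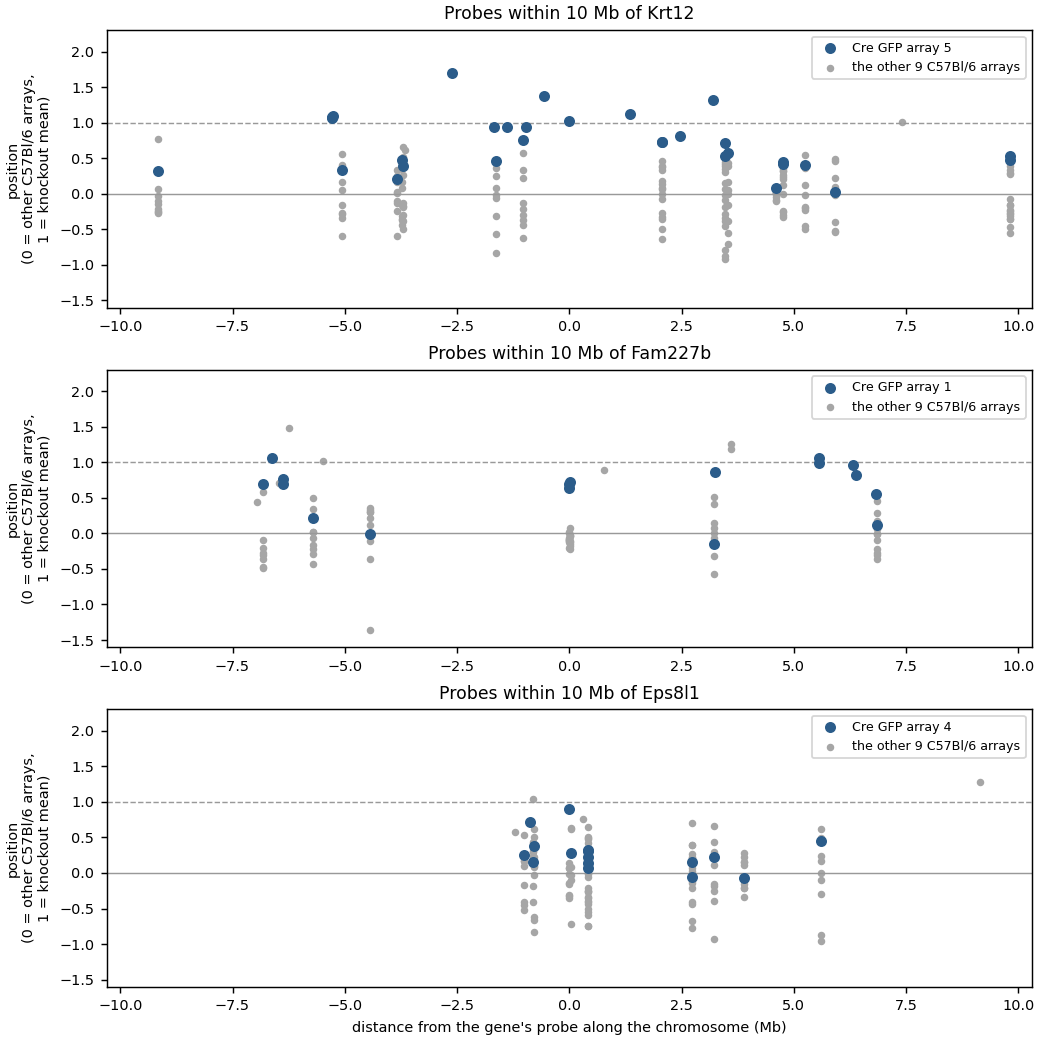
Position of each C57Bl/6 array between the other C57Bl/6 arrays (0) and the knockout mean (1), against distance in Mb from the probe of Krt12, Fam227b or Eps8l1; blue points are the Cre GFP array that stood apart, grey points the other 9. Over the probes other than the gene's own probes, 18 of 30 blue points lie at 0.5 or more around Krt12, 11 of 15 around Fam227b and 1 of 15 around Eps8l1.

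Genes within 1 Mb of each gene were tested in knockout minus Cre GFP over all probes. Of all probes 3.34% passed. Around Zfp296, 9 of 71 probes passed, of 8 genes, 4 probes being higher and 5 lower. Those of smallest p were Ercc2, a helicase of DNA repair and transcription (-0.69 ± 0.08, limma adjusted p = 0.000314), Sympk, a scaffold of mRNA 3′ end processing (-0.84 ± 0.13, adjusted p = 0.00286), and the proton-sensing receptor gene Gpr4 (-1.13 ± 0.17, adjusted p = 0.00286). Around Eps8l1, 5 of 93 probes passed, all lower and of only 2 genes, with Oscar, an osteoclast receptor gene, at -0.68 ± 0.16 (adjusted p = 0.0357). Around Krt12, 1 of 75 passed, Grb7, a signalling adaptor gene, which was higher by 0.68 ± 0.17 (adjusted p = 0.0486). Around Pttg1, Gbp2b and Fam227b 0 of 13, 0 of 16 and 0 of 33 passed. At 3.34% of all probes the share is too low to read counts of 0 among so few probes. With slide as a fixed block 4 probes passed around Zfp296, 2 around Eps8l1 and 2 around Krt12. In knockout minus active CRHR1, where 25.6% of all probes passed, 4, 7 and 6 probes did around Pttg1, Gbp2b and Fam227b.

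The genes most like each of the 6 over the 15 arrays were found by Pearson's r, a description in which the split between knockout and C57Bl/6 arrays sets most of the likeness. Pttg1 was followed by Fgl1 (r = 0.96), C5ar2 (0.96) and Tti2 (0.96). Zfp296 was followed by Napa (0.96), C5ar2 (0.96) and Ercc2 (0.95), all on chromosome 7 with it. Eps8l1 was followed by Nccrp1 (0.92), Dnajb9 (0.90) and Map3k1 (0.89). Gbp2b was followed by 2700046G09Rik (0.94), Cryzl2 (0.93) and Lef1 (0.93), and Fam227b by Gstt2 (0.96), Cds2 (0.95) and Fahd2a (0.94).

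Krt12 was followed by Stac2 (0.98), Fzd2 (0.98) and P4ha2 (0.90), all on chromosome 11, with Stac2 1.38 Mb and Fzd2 3.19 Mb away. Stac2, which encodes an adaptor of calcium channels, read 0.99 to 1.46 on the 5 knockout arrays, 2.63 to 3.45 on the 5 active CRHR1 arrays and 2.69 to 3.44 on Cre GFP arrays 1 to 4, but 1.36 on Cre GFP array 5. Fzd2 read -7.08 to -6.54 in the knockout, -4.22 to -3.18 in active CRHR1, -3.84 to -3.47 on Cre GFP arrays 1 to 4 and -7.89 on array 5. Array 5 thus read like the knockout on Krt12, Stac2 and Fzd2, although Fzd2 was not well above background on it or on any knockout array. As r was taken over all 15 arrays, array 5 helped choose Stac2 and Fzd2, so nothing is read from their likeness on it. Cds2, a phospholipid synthesis gene 6.31 Mb from Fam227b, read -1.34 to -0.57 in the knockout, -2.67 to -2.37 in active CRHR1, -2.88 to -1.96 on Cre GFP arrays 2 to 5 and -1.06 on Cre GFP array 1. Array 1 likewise helped choose Cds2.

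Genes of sister chromatid separation were set beside Pttg1. Of 25 tested, 0 passed in knockout minus Cre GFP (median -0.02, against 0.00 over all probes). Of all probes 3.34% passed there, too low a share to read a count of 0 in this list. In knockout minus active CRHR1 2 were higher and 1 lower, where 25.6% of all probes passed. In active CRHR1 minus Cre GFP, where 3.75% of all probes rose, 3 genes did: Ube2c (1.12 ± 0.20), Ccnb1 (1.24 ± 0.24) and Cdc20 (0.55 ± 0.14). Ube2c and Cdc20 belong to the machinery that ends mitosis, and Ccnb1 is a mitotic cyclin that it marks for destruction. Of 16 genes of cycling cells 1 passed in knockout minus Cre GFP, the spindle checkpoint kinase gene Bub1, which was well above background on 0 of the 10 arrays compared and so is given no difference. In the same list 13 rose in active CRHR1 minus Cre GFP (median 0.83, against -0.07 over all probes). These included Top2a (2.26 ± 0.28; well above background on 3 of 5 Cre GFP arrays), Bub1 (at least 1.52-fold, being below background on all Cre GFP arrays), Ccnb2 (1.00 ± 0.11) and Ccna2 (0.98 ± 0.14). In active CRHR1 minus Cre GFP 0 of the separation genes and 6 of the cycling genes passed with slide as a fixed block, and 8 of the cycling genes with arrays centred on their median.

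Of 14 tested genes of the pluripotency network 1 passed in knockout minus Cre GFP, the zinc finger gene Zfp42, higher by 3.77 ± 0.95, and 1 in active CRHR1 minus Cre GFP, Myc (0.43 ± 0.12). With slide as a fixed block, or with arrays centred on their median, neither passed. Of all probes 3.34% passed in knockout minus Cre GFP and 8.36% in active CRHR1 minus Cre GFP. Zfp42 was thus opposite in direction to Zfp296, at -3.14 to -2.46 on the knockout arrays, -8.26 to -4.28 in active CRHR1 and -8.07 to -4.36 in Cre GFP. It was well above background on 5 knockout, 3 active CRHR1 and 2 Cre GFP arrays, so its difference rests partly on signals below background. Of 10 EPS8 family members and partners, Whrn, a scaffold of hair cell stereocilia, was lower in the knockout than in Cre GFP (-0.45 ± 0.08), and Abi2 (-0.24 ± 0.06) and Rac1 (-0.20 ± 0.06), both of actin assembly, fell in active CRHR1. Of 20 genes of keratins and squamous or corneal epithelium, Perp, a desmosome gene, was lower in the knockout (-0.46 ± 0.08). In active CRHR1 minus Cre GFP Lor (-0.38 ± 0.07), Krt10 (-0.29 ± 0.06) and Perp (-0.30 ± 0.08) fell. With slide as a fixed block 0 of these epithelial genes passed in that comparison, and of the EPS8 list 0 passed in the knockout and 1 in active CRHR1. The summed signal, in units of the array's 75th percentile, covers the 28 epithelial genes with a probe, also those not tested. It was 19.6 to 20.6 in the knockout, 17.8 to 19.4 in active CRHR1 and 20.6 to 22.5 in Cre GFP.

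Other genes of the interferon-gamma response were set beside Gbp2b. Of 22 guanylate-binding protein and interferon-gamma signalling genes 0 passed in knockout minus Cre GFP (limma, median 0.35). Of all probes 3.34% passed there, a share too low to read a count of 0 in this list. In active CRHR1 minus Cre GFP 17 rose (median 2.56), where 3.75% of all probes rose, and 6 passed within slide 2. The immunity GTPase gene Igtp rose by 4.13 ± 0.45, Irgm1 by 3.14 ± 0.34, Iigp1 by 3.93 ± 0.48 and the transcription factor gene Irf8 by 2.07 ± 0.23 (limma, SE). Igtp read 0.65 to 2.43 in the knockout, 3.44 to 6.32 in active CRHR1 and 0.64 to 1.60 in Cre GFP, whereas Gbp2b was highest in the knockout. Active CRHR1 array 2, the array with Gbp2b at -7.93, had a summed signal of 56.2 over the 22 genes, against 114 to 223 on the other 4 active CRHR1 arrays and 31.0 to 38.6 on the Cre GFP arrays. Within 1 Mb of Gbp2b 5 of 16 probes passed in active CRHR1 minus Cre GFP, where 8.36% of all probes passed.

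Markers of immune cells also rose in active CRHR1. Of 8 T cell markers tested 6 rose in active CRHR1 minus Cre GFP. The summed signal of the 10 markers with a probe was 3.39 to 9.33 in active CRHR1, lowest on array 2, and 3.24 to 4.11 in Cre GFP. Of 13 microglia and macrophage markers 9 rose and 1 fell. Their sums were 137 to 194 in active CRHR1, again lowest on array 2, and 91.6 to 120 in Cre GFP. Of all probes 3.75% rose and 4.6% fell. The second Gbp2b probe, well above background on 3 active CRHR1 arrays, was lowest on array 5 (-8.06, with array 2 at -7.63). Array 5 had sums of 134 over the interferon list, 5.75 for T cells and 193 for microglia, so a shared order over arrays is not read. In the knockout, where Gbp2b was highest, the T cell sum was 3.48 to 4.67 and the microglia sum 106 to 133. In knockout minus Cre GFP 0 genes of either list passed, where 3.34% of all probes did, too low a share to read a count of 0. The part of these cells in the Gbp2b levels was not tested. In the knockout 4 of 11 endothelial and pericyte markers were higher than in Cre GFP, among them Rgs5 (1.03 ± 0.15), with sums of 34.7 to 41.7 in the knockout and 29.6 to 35.7 in Cre GFP, where 1.89% of all probes were higher. Of 8 astrocyte markers 2 were higher, Slc1a3 and Aqp4, and 0 passed as lower (list median 0.02). Their sums were 318 to 449 in the knockout and 337 to 411 in Cre GFP. Gfap, of the same list, lay lower in the knockout (2.27 to 2.65, against 2.84 to 3.62 in Cre GFP) but did not pass. Of 9 oligodendrocyte markers 2 were higher, Mbp and Sox10 (sums 195 to 244 in the knockout and 169 to 201 in Cre GFP). The part of these cells in the knockout differences was not tested.

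**Figure D5:**
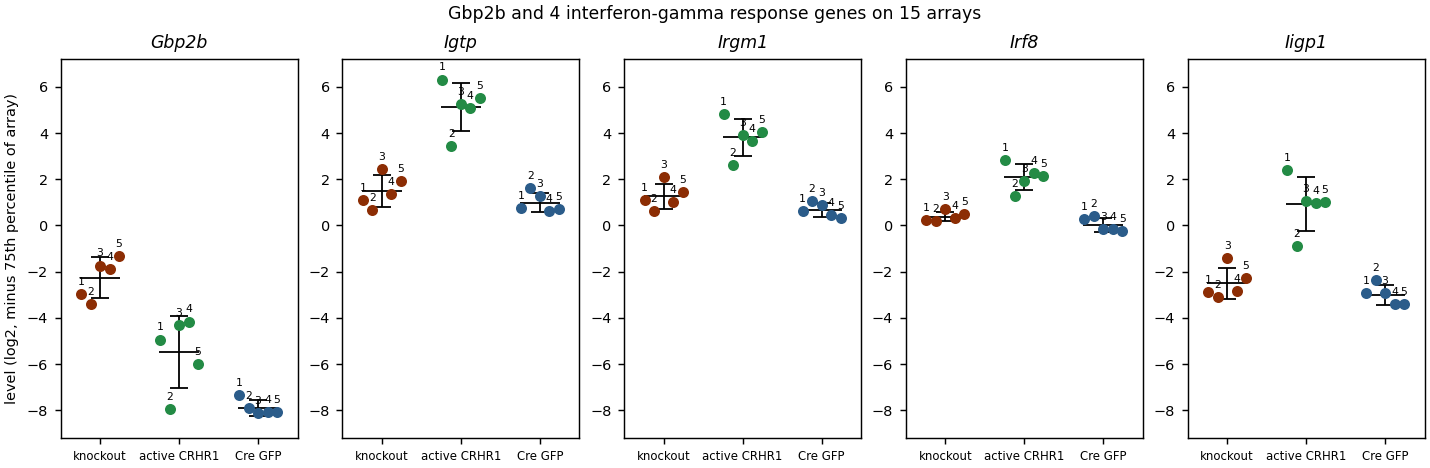
Level (log2 minus the array's 75th percentile) of Gbp2b, Igtp, Irgm1, Irf8 and Iigp1 on the 15 arrays, with array numbers, group mean and SD (n = 5). The 4 interferon response genes are highest in active CRHR1 and close together in the knockout and Cre GFP, while Gbp2b is highest in the knockout; active CRHR1 array 2 is the lowest of its group in all 5 panels.

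The start of Gbp2b is shown because its relatives answer interferon through motifs near their starts. The 250 bases before the gene start are from RefSeq (GRCm38.p6, chr3:142594597-142594846, plus strand), with a match to the core of the interferon-stimulated response element, GAAA followed by any 2 bases and GAAA, read on both strands, in capitals.
Gbp2b upstream: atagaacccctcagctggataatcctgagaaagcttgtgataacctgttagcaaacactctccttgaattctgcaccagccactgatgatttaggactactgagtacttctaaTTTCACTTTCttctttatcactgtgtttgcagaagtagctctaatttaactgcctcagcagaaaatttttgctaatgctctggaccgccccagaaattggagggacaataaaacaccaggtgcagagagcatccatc
The match starts 137 bases before the gene start. It occurs in 3.44% of the 32851 mouse promoter windows of 300 bases, and also in a window of Gbp2, Gbp3, Gbp5 and Gbp7. Of the other genes described here, 1 of the 3 Eps8l1 windows held it, and no window of Pttg1, Zfp296, Krt12 or Fam227b did. The interferon-gamma activated site TTCNNNGAA, found in 8.30% of windows, was not in that of Gbp2b. A match is a description of these letters in a C57Bl/6 reference and shows no binding.

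Of 14 tested genes whose alleles are known to differ between strains of these 2 kinds, 0 passed in knockout minus Cre GFP (limma; median 0.06), where 3.34% of all probes passed, a share too low to read anything from a count of 0 in a list of this size. In active CRHR1 minus Cre GFP 2 rose, the caspase gene Casp4 (2.23 ± 0.37) and the inflammasome gene Nlrp1b (2.01 ± 0.51; well above background on 4 active CRHR1 arrays and 1 Cre GFP array), and 1 passed with slide as a fixed block.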

How the data were processed

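Bulb RNA of 15 mice was hybridised to 1-colour Agilent arrays, 1 array per mouse. Per the file headers, the deposited scanner files hold the intensity of each of 62976 spots from Agilent Feature Extraction 10.7.3.1, background-subtracted and detrended within each array and not scaled between arrays. The authors' series values are a linear ratio, each spot's processed intensity over the array's median for non-control spots, as a match to the scanner values showed. Their column medians were 0.899 to 0.935, and they served as an alternative. Probe coordinates are mm9, per the file headers.

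Control and outlier spots were dropped and none was saturated (0 spots). The processed signal was taken to log2, relative to its array's 75th percentile, and averaged over the spots of each probe. Probes well above background on at least 4 of 5 arrays of any group were kept, 33968 of 55681. Names came from RefSeq through accessions for 27598 probes and otherwise from the array. limma 3.58.1 in R 4.3.3 (lmFit, eBayes) was fitted to all 15 arrays and kept probes, and p-values were adjusted by Benjamini-Hochberg over all 33968, with 0.05 as the threshold. In simulated arrays of active CRHR1 minus Cre GFP over these probes, 46%, 82%, 98% and 98% of changes of 0.5, 1, 2 and 3 (log2) were recovered, and 4.71% of calls were false. The simulated noise was normal and independent, without slides or arrays standing apart, and few probes were changed. These shares therefore check the code and do not describe the calls in the data. For a probe below background throughout a group, the fold is a lower bound against the higher of its own signal and the lowest signal well above background. The bound holds for the scanner's background subtraction, and some differences with normexp correction were smaller than it. The number of arrays limits the precision.

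The 6 genes, the gene lists and the tests were chosen with earlier results of these data known. Named genes were the 6 genes and their other probes, Crhr1, the 3 named genes of highest r with each, up to 3 called neighbours within 1 Mb, and up to 4 called genes of smallest p per list and comparison. Galk2, Rgs5 and TC1597181 were named after their values were seen. Alternatives were other scalings, background correction, filters, probe choice, models, thresholds, slide as a block or within slide, a replicate block, and each array left out. Array numbers are shared by the groups in the labels. Deviations of same-numbered arrays had a median correlation of -0.02 (15 pairs, -0.21 to 0.40), so the numbers were not taken to pair the mice. Software also included Python 3.11.15 with matplotlib 3.10.9 and pandas 2.3.3, and the R package data.table (1.17.8).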

Additional observations from a re-analysis of the deposited data

Results flagged for a closer look

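In 24 sets of 5 arrays (8 probes in 3 groups), 6 had an array far from the other 4 by Dixon's test at the 95% level, which sets its gap to the nearest array against the whole range. Chance flags about 1 in 20 such sets. Krt12 read -8.21 on Cre GFP array 5 and -1.13 on active CRHR1 array 3. Eps8l1 read -4.57 on Cre GFP array 4, and Fam227b read -1.56 on Cre GFP array 1. Gbp2b read -7.33 on Cre GFP array 1, where it was not well above background. Zfp296 read -5.41 on knockout array 2, where it was well above background. The Krt12, Eps8l1 and Fam227b values of the Cre GFP arrays lay toward the knockout level, each on a different array.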

How the results depend on the processing

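All 6 genes passed in both knockout comparisons in every alternative but a few, and no knockout difference changed sign. The exceptions are that in knockout minus Cre GFP Eps8l1 and Krt12 failed at an adjusted p under 0.01 (0.0111 and 0.0143), Krt12 in a fit of those 2 groups alone (0.0642), Fam227b within slide 1 (0.102) and the second Pttg1 probe within slide 1 (0.0556) and without the 3 Cre GFP arrays named below (0.0945), and that in knockout minus active CRHR1 Fam227b (0.0556) and Gbp2b (0.160) failed with slide as a fixed block, which holds all knockout arrays on 1 slide and all active CRHR1 arrays on the other. In active CRHR1 minus Cre GFP the count of genes called, 1, was 0 at an adjusted p under 0.01, without a filter on dim probes, with normexp background, with slide as a fixed block, within slide 2 and, added after seeing the data, without Cre GFP arrays 1, 4 and 5, and it was 0 to 1 when single arrays were left out. The Eps8l1 difference there was -0.32 to 0.76 when single arrays were left out and -0.28 without the 3 Cre GFP arrays, that of Fam227b -0.56 to 0.031 and 0.068, and that of Krt12 -0.19 to 1.96 and -0.45. A replicate block changed no call among the 6 genes and gave 719 called probes in knockout minus Cre GFP, 7447 in knockout minus active CRHR1 and 1861 in active CRHR1 minus Cre GFP, against 1133, 8684 and 2839. Over the other alternatives these 3 counts ranged over 168 to 1929, 843 to 13244 and 393 to 6965. Median centring moved the median of all probes by -0.06, 0.04 and -0.10 in these comparisons. Probes below background on a whole group limit Krt12, Gbp2b and the second Pttg1 probe to bounds, which hold for the scanner's background subtraction only.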

Other observations

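The 10 C57Bl/6 arrays were scanned for probes on which 1 array stood with the 5 knockout arrays, at least 0.5 (log2) away from the other 9, a search chosen after the values were seen. Of 33968 probes, Cre GFP array 5 had 8, Cre GFP array 1 had 3, Cre GFP arrays 2 and 4 had 2 each and Cre GFP array 3 had 0, while the active CRHR1 arrays had 0 to 2 each. Of the 8 probes of Cre GFP array 5, 6 lay on chromosome 11 between 93999825 and 102469104 (mm9): 3 without a gene symbol, Stac2, Krt12 and Fzd2, with gaps of 1.17 to 6.79. The 3 without a symbol lay close together, between 93999825 and 94017090, and Krt12 was among the values seen before the search. The share of all kept probes on chromosome 11 was not counted, so nothing is read from the count of 6. The 3 probes of Cre GFP array 1 were 2 of Fam227b (gaps of 2.00 and 2.03) and Cds2 (0.62), all on chromosome 2. Those of Cre GFP array 2 were both of Mid1, a ubiquitin ligase gene on the X chromosome (0.97 and 0.70). Those of Cre GFP array 4 were Eps8l1 on chromosome 7 (2.77) and 1 probe without a gene symbol on chromosome 11 (1.88).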
